A study of Mus musculus with 27 samples.

Results

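The genes described here are 10 members of the insulin-like growth factor (IGF) system, chosen by name: the ligand *Igf1*, the receptors *Igf1r* and *Insr*, the adaptor *Irs1* and the binding proteins *Igfbp2*, *Igfbp3*, *Igfbp4*, *Igfbp5*, *Igfbp6* and *Igfbp7*. All 10 were found by symbol among the 37310 genes of the count table, and all 10 were among the 15387 genes with enough counts to be tested. Their RNA was measured by bulk RNA-seq in mouse embryonic fibroblasts (MEFs) with and without *Firre*, a long non-coding RNA gene of the X chromosome whose locus, dense in CTCF binding, the study removed to ask what it does for the folding of the chromosome into domains. Of the series, 12 RNA-seq libraries are used here.

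The libraries form 4 groups of 3 replicates: female wild-type (WT), female *Firre* knockout (KO), male WT and male *Firre* KO MEFs. The KO cells carry a germline deletion of the whole *Firre* locus made between inserted loxP sites, and the WT cells carry no engineered allele that the labels name. All MEFs were untreated primary low-passage cells from E13.5 embryos that had been eviscerated and stripped of head and limbs, and sex was assigned by genotyping for *Sry*. A MEF culture of this kind is a mixed mesenchymal population and can hold other embryonic cells. The sources used here do not say whether the 3 replicates of a group came from separate embryos or cultures, so the p-values measure the spread between these libraries, which may be technical.

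IGF1 and its fetal relative IGF2 are secreted peptides that act mainly through the IGF1 receptor, a tyrosine kinase closely related to the insulin receptor. Activated receptors phosphorylate insulin receptor substrates such as IRS1, which recruit phosphoinositide 3-kinase and so switch on AKT signalling and growth. The binding proteins IGFBP2 to IGFBP6 bind IGFs with high affinity outside the cell and carry, store or withhold them, whereas IGFBP7 binds IGFs only weakly and is a matrix-associated relative. Fibroblasts are a common source of both the ligands and the binding proteins.

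Members of the binding protein family share an amino-terminal region rich in cysteines, and its signature motif was looked for, in the form cysteine, glycine, cysteine, cysteine, then 2 variable residues and a cysteine, in the coding sequences because several of these genes share it. Each line gives the sense strand of exon 1 around that motif in the mm9 build, with the codons from the first cysteine to the last in capitals.
Igfbp2: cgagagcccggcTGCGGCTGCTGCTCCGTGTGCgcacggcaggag
Igfbp3: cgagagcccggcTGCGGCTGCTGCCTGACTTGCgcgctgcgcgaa
Igfbp4: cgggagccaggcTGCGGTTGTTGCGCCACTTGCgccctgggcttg
Igfbp5: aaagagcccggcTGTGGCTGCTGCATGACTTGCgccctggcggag
Igfbp7: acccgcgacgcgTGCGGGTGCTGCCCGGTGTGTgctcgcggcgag
The windows lie at chr1:72871343-72871387 on the plus strand for *Igfbp2*, chr11:7113557-7113601 on the minus strand for *Igfbp3*, chr11:98902955-98902999 on the plus strand for *Igfbp4*, chr1:72920528-72920572 on the minus strand for *Igfbp5* and chr5:77836839-77836883 on the minus strand for *Igfbp7*. The first capital codon is codon 68, 69, 53, 52 and 57 of these coding sequences, in the same order. Of the 21 capital bases, *Igfbp3* and *Igfbp5* shared 19, the most of any pair, and *Igfbp7* shared 13 with *Igfbp4* and 13 with *Igfbp5*, the fewest. No match to the searched pattern was found in the coding sequence of *Igfbp6*.

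In the mm9 annotation, *Igf1* (ENSMUSG00000020053.11) spans chr10:87321010-87399792 on the plus strand, *Igf1r* (ENSMUSG00000005533.8) chr7:75097713-75371484 on the plus strand, *Insr* (ENSMUSG00000005534.8) chr8:3150922-3279617 on the minus strand and *Irs1* (ENSMUSG00000055980.2) chr1:82229676-82287991 on the minus strand. The binding protein genes include a close pair on chromosome 1, where *Igfbp2* (ENSMUSG00000039323.11, chr1:72871077-72899048, plus strand) and *Igfbp5* (ENSMUSG00000026185.8, chr1:72904506-72921458, minus strand) face each other tail to tail across 5457 bases. *Igfbp3* (ENSMUSG00000020427.5) lies at chr11:7106089-7113926 on the minus strand, *Igfbp4* (ENSMUSG00000017493.5) at chr11:98902558-98913969 on the plus strand, *Igfbp6* (ENSMUSG00000023046.6) at chr15:101974793-101979942 on the plus strand and *Igfbp7* (ENSMUSG00000036256.6) at chr5:77778265-77837070 on the minus strand. Exons of *Irs1* overlap the opposite-strand gene *Gm9747* by 2822 bases, and exons of *Igfbp7* overlap the opposite-strand genes *Polr2b* and *AC141469.5* by 170 bases in all. *AC141469.5* measured 92.7 to 110.0 CPM and *Polr2b* 5.23 to 11.1 CPM over the 12 libraries, and the part of their reads in the level of *Igfbp7* was not tested. The library kit does not mark strand, so reads in these stretches cannot be told apart.

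Library depth ran from 42986516 to 51481034 expected counts in female MEFs and from 51521907 to 65454660 in male MEFs, without overlap. Reads of *Firre* (listed as 6720401G13Rik) were absent from all 6 KO libraries, which is at least 33.0-fold lower than WT in female and at least 92.5-fold lower in male MEFs against a limit of 3 counts per library. The 10 fibroblast markers checked, collagens and *Vim* among them, were all detected and summed to between 16350 and 24060 CPM in every library. CPM is the count of a gene scaled to a common library size after TMM normalization. The male libraries numbered 3, WT and KO alike, stood apart from the other 2 of their groups, with a chi-square per degree of freedom of 36.9 to 44.1 against 7.42 to 16.1 for the remaining replicate pairs. Calls of members between the sexes that differ when these 2 libraries are left out are given both ways. Female and male MEFs differ in sex, in embryo line and in depth at once, and these cannot be told apart. In bulk RNA, fewer cells of a type and less RNA per cell cannot be told apart either.

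Which members the fibroblasts expressed most was read from CPM divided by the merged exon length in kb, the scale on which genes can be compared. *Igfbp7* led in all 12 libraries, with 166 to 251 CPM per kb and a mean over the 4 groups of 200.3. Next came *Igf1r* at 26.8, *Igfbp2* at 24.0, *Igfbp4* at 20.8, *Igfbp6* at 18.5 and *Igfbp5* at 17.9 CPM per kb. The order of these 5 neighbours was not fixed, since each was above the next in only 5 to 8 of 12 libraries. *Irs1* (6.99 CPM per kb) was above *Insr* (5.27) in 10 libraries, *Insr* was above *Igfbp3* (3.95) in 10, and *Igfbp3* was above *Igf1* (0.850) in 12. The merged length of *Igf1* covers 9 annotated transcripts, so its level per kb is a low estimate where a short transcript dominates.

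**Figure D1:**
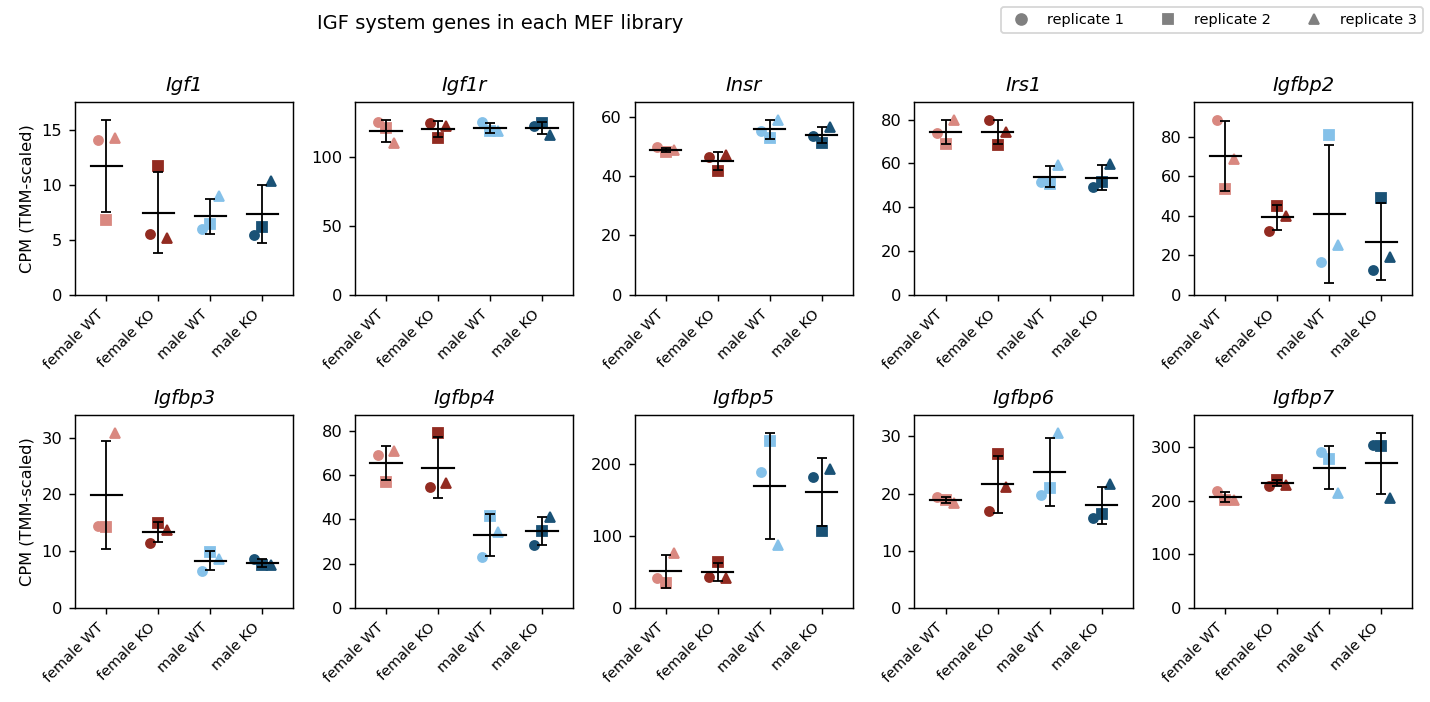
Level of each of the 10 IGF system genes in CPM (TMM-scaled, linear axis from 0) in each library, by group on the horizontal axis. Symbols mark the replicate number, and the bar and whiskers give the mean ± SD of 3 libraries. *Igf1r* sits between 109.5 and 125.4 CPM in all 12 libraries, *Igfbp5* is higher in all male than in all female libraries, and *Igfbp2* is widely spread in both male groups.

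*Igf1*, the growth hormone-responsive ligand, was the lowest member per kb. It measured 14.1, 6.85 and 14.3 CPM in female WT, 5.50, 11.8 and 5.18 in female KO, 6.02, 6.47 and 8.999 in male WT and 5.47, 6.18 and 10.4 in male KO libraries. Each pair of WT and KO groups overlapped, and female libraries fell into 3 above 11 CPM (WT 1, WT 3 and KO 2) and 3 below 7 CPM (WT 2, KO 1 and KO 3). The 3 female libraries with high *Igf1* (WT 1, WT 3 and KO 2) were also the 3 with the highest summed level of 10 macrophage markers, at 93.2, 86.2 and 129.2 CPM against 41.1 to 58.6 CPM in the other 3. In male MEFs the order differed, since *Igf1* was highest in WT 3 and KO 3 while the marker sum was 16, 10.5 and 12.1 CPM in WT and 8.75, 17.6 and 14.7 CPM in KO libraries. No such markers were at 0 in all libraries, and their part in the *Igf1* values was not tested. The related ligand *Igf2*, the main fetal growth factor of the pair, stood at 232 to 404 CPM per kb, 230.3-fold to 720.5-fold above *Igf1* within each library. *Ins1* and *Ins2*, the insulin genes, had 0 counts in all 12 libraries, which allows no more than 3 counts per library.

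The receptors varied little within groups. *Igf1r*, the receptor that transmits the growth signal of both IGFs, measured 125.4, 120.9 and 109.5 CPM in female WT, 124.4, 113.4 and 121.9 in female KO, 124.9, 118.3 and 118.7 in male WT and 121.9, 124.1 and 115.7 in male KO libraries. All 4 ranges overlapped, and the coefficient of variation within a group was 3.07% to 6.93%. For *Insr* it was 1.47% to 6.74%. *Igfbp7* was lower still in female KO (2.56%) and *Igfbp6* in female WT (2.77%) than *Igf1r* in those groups. *Insr*, the insulin receptor, measured 49.8, 48.4 and 48.7 CPM in female WT, 46.6, 41.6 and 47.2 in female KO, 55.5, 52.9 and 59.2 in male WT and 53.6, 51.3 and 56.7 in male KO libraries. Here every male library was above every female library. Per kb, *Igf1r* exceeded *Insr* by a ratio of 5.23 ± 0.329 in female WT, 5.74 ± 0.150 in female KO, 4.68 ± 0.299 in male WT and 4.85 ± 0.413 in male KO MEFs (SD, n = 3 each). *Igf2r*, the scavenger receptor that removes IGF2, was at 33.0 to 71.1 CPM per kb.

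*Irs1*, the adaptor that links both receptors to phosphoinositide 3-kinase, measured 73.9, 68.9 and 80.0 CPM in female WT, 79.6, 68.6 and 74.3 in female KO, 51.7, 50.4 and 59.3 in male WT and 49.1, 51.7 and 59.8 in male KO libraries. Female and male libraries did not overlap, and WT and KO libraries of one sex did. *Irs2*, its close relative, was at 15.7 to 26.2 CPM.

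Among the binding proteins, *Igfbp2*, a circulating and matrix binding protein abundant in fetal tissues, was the most variable in male MEFs, with a coefficient of variation of 85.4% in WT and 73.2% in KO. In female MEFs it was 25.3% and 16.3%, below that of *Igfbp5* (44.3% and 25.7%). Its values were 88.7, 53.3 and 68.5 CPM in female WT, 32.5, 45.1 and 39.9 in female KO, 16.5, 81.1 and 25.4 in male WT and 12.2, 49.2 and 19.1 in male KO libraries. All 3 female KO libraries lay below all 3 female WT libraries, the male groups overlapped, and in both male groups the library numbered 2 was far above the other 2. The summed level of 8 cartilage markers, made up mostly of *Col2a1* in the libraries numbered 2, was also highest in them, at 228.9, 428.5 and 77.0 CPM in male WT and 321.5, 496.3 and 176.6 CPM in male KO libraries. In female KO libraries it ran the other way, with 401.6 CPM in KO 1, which had the lowest *Igfbp2*, and its part in the *Igfbp2* levels was not tested. Of 7 epithelial markers 6 were lower and 1 higher in female KO than in female WT MEFs. Their smallest adjusted p was 0.497 by edgeR's quasi-likelihood test, their sums overlapped, and their part was not tested either. *Igfbp7*, the weak IGF binder of the matrix, measured 218.1, 201.6 and 202.0 CPM in female WT, 228.2, 239.3 and 230.2 in female KO, 291.7, 278.6 and 215.4 in male WT and 304.5, 301.4 and 204.6 in male KO libraries. The male libraries numbered 3 were the low ones in both male groups, and female KO libraries were above female WT libraries without overlap.

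*Igfbp3*, the main carrier of IGFs in adult blood, measured 14.4, 14.3 and 30.9 CPM in female WT, 11.4, 14.9 and 13.8 in female KO, 6.48, 9.84 and 8.64 in male WT and 8.63, 7.60 and 7.49 in male KO libraries. Female WT 3 stood far above the other libraries, and all female libraries were above all male ones. Female WT 3 also had the highest summed epithelial (128.7 CPM), skeletal muscle (167.9 CPM) and endothelial (36.4 CPM) marker levels of the 12 libraries, and their part in its *Igfbp3* level was not tested. *Igfbp4*, an inhibitory binding protein cleaved by the protease PAPP-A, measured 68.8, 56.7 and 70.9 CPM in female WT, 54.6, 79.0 and 56.1 in female KO, 22.9, 41.6 and 34.1 in male WT and 28.5, 34.8 and 40.9 in male KO libraries. It likewise separated the sexes and not the genotypes.

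*Igfbp5*, the most conserved binding protein and one stored in bone matrix, ran the other way between the sexes. It measured 40.7, 34.6 and 76.0 CPM in female WT, 42.9, 63.9 and 41.1 in female KO, 188.2, 231.1 and 87.7 in male WT and 181.4, 106.1 and 193.0 in male KO libraries. Each male library was above each female library, by a narrow margin for female WT 3 and male WT 3. *Igfbp6*, which prefers IGF2 over IGF1, measured 19.5, 19.0 and 18.4 CPM in female WT, 16.9, 26.9 and 21.1 in female KO, 19.8, 20.98 and 30.7 in male WT and 15.7, 16.4 and 21.7 in male KO libraries. WT and KO overlapped in both sexes, although the male KO values were on the low side.

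The balance of the 6 binding proteins was described as the share of each in their summed CPM per kb, with no test. The sum itself was 268 ± 20.1 CPM per kb in female WT, 272 ± 20.7 in female KO, 304 ± 50.8 in male WT and 297 ± 40.8 in male KO MEFs (SD, n = 3 each), and the 4 ranges overlapped. *Igfbp7* made up 63.8% ± 3.29 in female WT, 70.8% ± 3.51 in female KO, 71.2% ± 6.10 in male WT and 74.4% ± 6.22 in male KO MEFs. Its share was 61.1% to 79.2% over the 12 libraries and always the largest. Computed from CPM without division by length, the mean share of *Igfbp7* was 51.4%.

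What remained was divided differently in female and male MEFs. *Igfbp4* held 10.3% ± 0.641 in female WT and 9.80% ± 1.35 in female KO against 4.63% ± 1.36 in male WT and 5.09% ± 1.63 in male KO MEFs. *Igfbp5* held 3.12% ± 1.32 and 2.998% ± 0.543 in the female groups against 8.95% ± 2.74 and 9.27% ± 3.70 in the male groups (SD, n = 3 each). The ratio of *Igfbp5* to *Igfbp4* per kb was thus 0.232 to 0.422 over the 6 female libraries and 1.01 to 3.24 over the male ones, with *Igfbp4* ahead in each female library and *Igfbp5* ahead in each male one. *Igfbp2* held 16.8%, 11.7% and 13.6% in female WT and 6.90%, 8.29% and 8.15% in female KO libraries, which did not overlap. In male WT the same share was 2.89%, 12.5% and 5.48% and in male KO 2.09%, 8.20% and 4.13%, which did overlap. *Igfbp6* held between 4.46% and 11%, and *Igfbp3* between 0.667% and 3.62%, the smallest share in all 12 libraries on this scale. From CPM without division by length, the longer transcripts weighed more: *Igfbp5* held 11.5% and 11.7% in the female and 30.4% and 31.1% in the male groups (WT and KO), and *Igfbp3* held 4.53% and 3.19% against 1.61% and 1.53%. On that scale *Igfbp5* was above *Igfbp4* in female WT 3 as well as in all male libraries, and *Igfbp3* was above *Igfbp6* in that library.

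**Figure D2:**
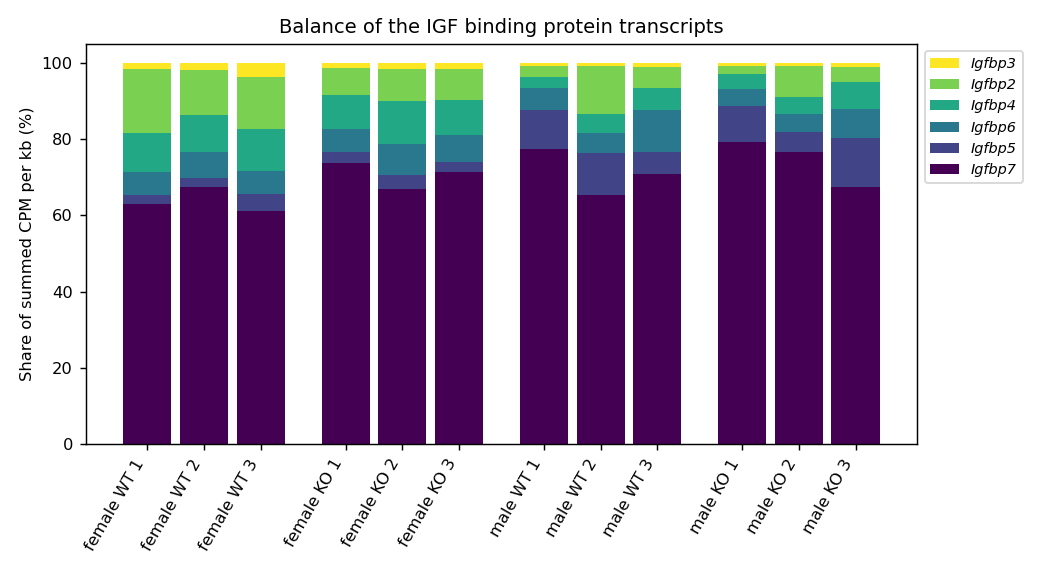
Share of *Igfbp2* to *Igfbp7* in their summed CPM per kb, in percent, 1 stacked bar per library, grouped by sex and genotype. *Igfbp7* fills 61.1% to 79.2% of each bar. The *Igfbp5* segment is 2.34% to 4.64% in female and 5.44% to 12.8% in male libraries, and the *Igfbp4* segment is 8.96% to 11.4% in female and 3.12% to 6.92% in male libraries.

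Whether loss of *Firre* altered these genes was tested in each sex with edgeR's quasi-likelihood test on all 15387 genes, Benjamini-Hochberg adjustment and the study's thresholds, which ask for an adjusted p below 0.01 and more than 1 unit of change on the log2 scale. None of the 10 members passed in female or in male MEFs, beside a background of 0.0065% of genes in each sex, which is *Firre* alone. None passed at an adjusted p under 0.05 without a fold limit (0.013% of all genes did in female and 0.0065% in male MEFs), none had an unadjusted p under 0.05 (7.55% of all genes in female and 2.06% in male MEFs), and DESeq2 called 0 members as well. Averaged over the sexes, 0 members passed at any of these levels, beside 0.0065%, 0.0195% and 6.24% of all genes. These counts are from the fit without a block. In edgeR's fit with the replicate number as a block within each sex, some members had an unadjusted p under 0.05, and none passed after adjustment. The background in that fit was 3.53% of all genes for the male, 10.9% for the female and 9.37% for the averaged comparison. In male MEFs the unadjusted values were 0.0309 for *Igfbp2* and 0.0103 for *Igfbp6*, with an adjusted p of 1 for both. In female MEFs they were 0.00369 for *Igfbp2* (adjusted p = 0.289), 0.0116 for *Igfbp7* (adjusted p = 0.348) and 0.0223 for *Insr* (adjusted p = 0.391). Averaged over the sexes they were 0.00167 for *Igfbp2* (adjusted p = 0.294), 0.0208 for *Insr* (adjusted p = 0.471) and 0.0234 for *Igfbp7* (adjusted p = 0.484). For the difference between the sexes in the KO effect, the value was 0.0103 for *Igfbp6* (adjusted p = 0.968), beside 4.91% of all genes. Same-numbered female libraries did not deviate together across genes (r = -0.258, -0.132 and -0.183). The female, averaged and difference values of that fit thus rest on a pairing the female libraries do not show. Both sexes share 1 estimate of spread in it. In the fit without a block, the smallest adjusted p among the members was 0.67 in female and 1 in male MEFs. Median log2 fold changes were -0.04 and -0.03, beside 0 and 0.00 over all genes tested. With the replicate number as a block within each sex, the adjusted p of *Firre* itself was 0.183 in female and 0.286 in male MEFs.

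The intervals show which sizes of effect these libraries leave room for. For *Igf1r* the log2 fold change of KO over WT was 0.02 (95% interval -0.11 to 0.14) in female and 0.00 (-0.12 to 0.12) in male MEFs. For *Irs1* it was 0.00 (-0.20 to 0.20) in female and -0.01 (-0.21 to 0.19) in male MEFs, and for *Insr* -0.12 (-0.25 to 0.01) and -0.05 (-0.18 to 0.08). Changes of 2-fold lie outside all 6 of these intervals, as far as the spread between these libraries goes. Intervals were wider for *Igfbp4* and *Igfbp7*, at -0.51 to 0.42 and -0.15 to 0.48 in female and -0.39 to 0.55 and -0.27 to 0.36 in male MEFs.

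For the variable members the intervals were wide. *Igfbp2* had a log2 fold change of -0.84 (SE 0.572, interval -2.10 to 0.42, adjusted p = 0.765) in female and -0.61 (SE 0.573, interval -1.87 to 0.65, adjusted p = 1) in male MEFs, so a fall by more than 2-fold and a small rise both remain inside. Averaged over the sexes it was -0.72 (SE 0.405, adjusted p = 0.815), and it ran from -1.11 without male KO 2 to -0.24 without male WT 2. Male WT and KO libraries with the same number deviated together across genes (r = 0.237, 0.413 and 0.495). Male WT 1 with KO 2 (r = 0.221) and WT 2 with KO 1 (r = 0.163) did too, so the pairing of numbers 1 and 2 is less sure. Within the same-numbered pairs *Igfbp2* in KO differed from WT by -0.43, -0.72 and -0.41 on the log2 scale. All 3 differences point down, and the fit with this pairing gave -0.53 (SE 0.200, adjusted p = 1), which did not pass. Without pairing the male value rested on single libraries and ran from -1.39 without male KO 2 to 0.37 without male WT 2.

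*Igf1* had a log2 fold change of -0.65 (SE 0.374, interval -1.47 to 0.17, adjusted p = 0.715) in female and 0.03 (SE 0.373, interval -0.79 to 0.85, adjusted p = 1) in male MEFs. The female value was -1.14 without female KO 2, the library with the highest macrophage marker sum, and -0.44 without female KO 3. *Igfbp3* had -0.58 (SE 0.267, interval -1.16 to 0.01, adjusted p = 0.67) in female MEFs, and -0.11 without female WT 3, the library with the outlying level. In male MEFs its value was -0.07 (SE 0.274). For *Igfbp5* the female value was -0.04 (SE 0.387) and the male value -0.08 (SE 0.375), and its paired male differences of -0.05, -1.12 and 1.14 had no common direction. *Igfbp6* measured 0.19 (SE 0.195) in female MEFs and -0.41 (SE 0.193, interval -0.83 to 0.02, adjusted p = 1) in male ones, lower in KO in 3 of 3 male pairs by 0.33 to 0.50. The male value ran from -0.57 without male KO 3 to -0.19 without male WT 3, and the female value from 0.003 without female KO 2 to 0.34 without female KO 1.

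Whether female and male MEFs responded differently to the KO was tested by the interaction term. No member passed, at the study's thresholds or at an adjusted p under 0.05 (0% of all genes in each case) or at an unadjusted p under 0.05 (3.19% of all genes). The member nearest to it was *Igfbp6*, whose female minus male difference in log2 fold change was 0.60 (SE 0.274, interval 0.00 to 1.2, unadjusted p = 0.0512, adjusted p = 1 by edgeR's quasi-likelihood test). With the replicate block within each sex it was 0.57 (unadjusted p = 0.0103, adjusted p = 0.968), and without male KO 3 or male WT 3 it was 0.76 or 0.38. For *Igf1* the same difference was -0.68 (SE 0.528, adjusted p = 1), between -1.17 without female KO 2 and -0.35 without male KO 3. Counting groups whose libraries did not overlap, female KO and WT separated for *Igfbp7*, *Insr* and *Igfbp2*, which is 3 of 10 members beside 19.1% of all genes. In male MEFs 0 of 10 members separated, beside 5.29% of all genes.

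**Figure D3:**
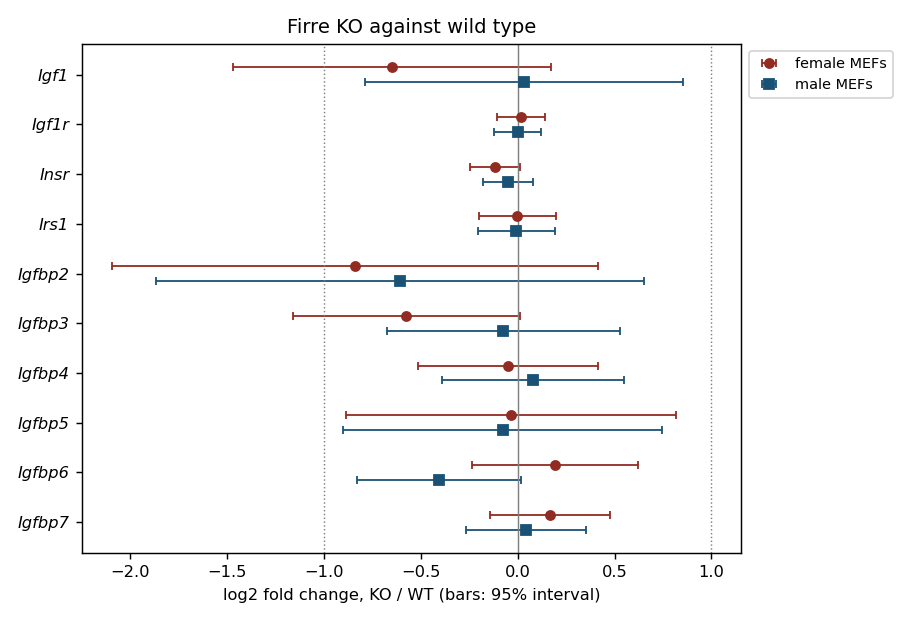
Log2 fold change of *Firre* KO over WT for each member, in female (circles) and male (squares) MEFs, with the 95% interval of the edgeR fit as bars. Dotted lines mark 2-fold changes. All 20 intervals include 0, those of *Igf1r*, *Insr* and *Irs1* are narrow, and those of *Igfbp2* reach below -1.

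Female and male MEFs were compared in WT and again in KO libraries, which share no sample. Both comparisons come from 1 fit with a shared estimate of spread, and same-numbered male WT and KO libraries deviated together. The comparisons are therefore not independent of each other. At the study's thresholds 2 of 10 members passed in WT, *Igfbp3* higher and *Igfbp5* lower in female MEFs, beside 4.54% of all genes tested (2.98% higher and 1.55% lower). In KO 1 of 10 passed, *Igfbp5* again lower in female MEFs, beside 3.89% of all genes (2.31% higher and 1.58% lower). At an adjusted p under 0.05 without a fold limit, the same 5 members passed in both comparisons, *Irs1*, *Igfbp3* and *Igfbp4* higher and *Insr* and *Igfbp5* lower in female MEFs. The background at that threshold was 38.7% of genes in both comparisons (18.9% higher in both, 19.8% lower in WT and 19.7% lower in KO), so passing it is not particular to the IGF system. Without both male libraries numbered 3, 6 members passed in each comparison, beside 45.1% of all genes in WT and 44.6% in KO in that fit. Female and male libraries did not overlap for 6 of 10 members in WT and 5 of 10 in KO, beside 51.9% and 50.2% of all genes.

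*Igfbp5* differed most. Its female level was 3.34-fold lower than the male level in WT (log2 fold change -1.74, SE 0.391, adjusted p = 0.00524) and 3.25-fold lower in KO MEFs (log2 fold change -1.70, SE 0.391, adjusted p = 0.00598). The direction held without any single library, but the adjusted p rose above 0.01 in WT without female WT 1 (0.0239), female WT 2 (0.0252), male WT 1 (0.0183) or male WT 2 (0.0204), and in KO without female KO 1 (0.0267), female KO 3 (0.0273), male KO 1 (0.02) or male KO 3 (0.0164), and reached 0.01 without female KO 2. With the replicate number as a block the adjusted p was 0.0131 in WT and 0.0137 in KO, and with only the groups compared it was 0.016 in WT. Without both male libraries numbered 3 the log2 fold changes were -2.05 (adjusted p = 0.00103) in WT and -1.54 (adjusted p = 0.0049) in KO MEFs. *Igf2r* ran in the same direction, with -0.72 (SE 0.139, adjusted p = 0.00221) in WT and -0.70 (SE 0.139, adjusted p = 0.00264) in KO MEFs.

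*Igfbp4* was 1.99-fold higher in female WT (log2 fold change 0.99, SE 0.214, adjusted p = 0.00429) and 1.82-fold higher in female KO MEFs (0.87, SE 0.214, adjusted p = 0.00867). It missed the study's fold limit in WT by little, and passed it without female WT 2 (1.09), without male WT 2 (1.2) or without both male libraries numbered 3 (1.02, adjusted p = 0.00778). *Igfbp3* was 2.39-fold higher in female WT (log2 fold change 1.26, SE 0.271, adjusted p = 0.00429) and 1.69-fold higher in female KO MEFs (0.76, SE 0.273, adjusted p = 0.0468). Its WT value fell to 0.79 without female WT 3, and its adjusted p was 0.021 without male WT 1 and 0.0113 without male WT 3. With both male libraries numbered 3 left out, *Igfbp3* had an adjusted p of 0.0114 in WT and 0.107 in KO MEFs.

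The adaptor and the insulin receptor differed by smaller and more even amounts. *Irs1* was higher in female MEFs by 0.47 on the log2 scale in WT (SE 0.090, adjusted p = 0.00237) and by 0.47 in KO (SE 0.090, adjusted p = 0.00227), in 6 of 6 female libraries above all male ones. The overlapping gene *Gm9747* ran the same way, with means of 17.1 CPM in female WT and 16.6 in female KO against 13.3 in male WT and 13.7 in male KO MEFs, so its share in the *Irs1* difference cannot be told apart. The sum of *Irs1* and *Gm9747* was at least 84.04 CPM in every female and at most 76.15 CPM in every male library. *Insr* was lower in female MEFs, by -0.19 in WT (SE 0.059, adjusted p = 0.0268) and -0.26 in KO (SE 0.060, adjusted p = 0.00638). *Igf1r* did not differ by more than 0.15 in either direction, with intervals of -0.15 to 0.10 in WT and -0.13 to 0.11 in KO MEFs.

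Values of the other 4 members did not pass in either comparison. *Igfbp7* had log2 fold changes of female over male of -0.34 (adjusted p = 0.0806) in WT and -0.22 (adjusted p = 0.25) in KO MEFs. When the 2 male libraries numbered 3, its low ones, were left out, these became -0.46 (adjusted p = 5.25e-05) and -0.38 (adjusted p = 0.000145). *Igfbp2* had 0.77 (SE 0.568) and 0.54 (SE 0.576), running from 0.39 without male WT 1 to 1.74 without male WT 2 and from 0.19 without male KO 1 to 1.32 without male KO 2. The values were for *Igf1* 0.72 (SE 0.372) and 0.03 (SE 0.375), and for *Igfbp6* -0.33 (SE 0.194) and 0.27 (SE 0.194), which are of opposite sign in WT and KO. With a single library left out, *Igfbp6* ran from -0.446 to -0.108 in WT and from 0.081 to 0.426 in KO MEFs. Without the male libraries numbered 3, *Igfbp6* had 0.43 in KO MEFs (adjusted p = 0.0404).

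**Figure D4:**
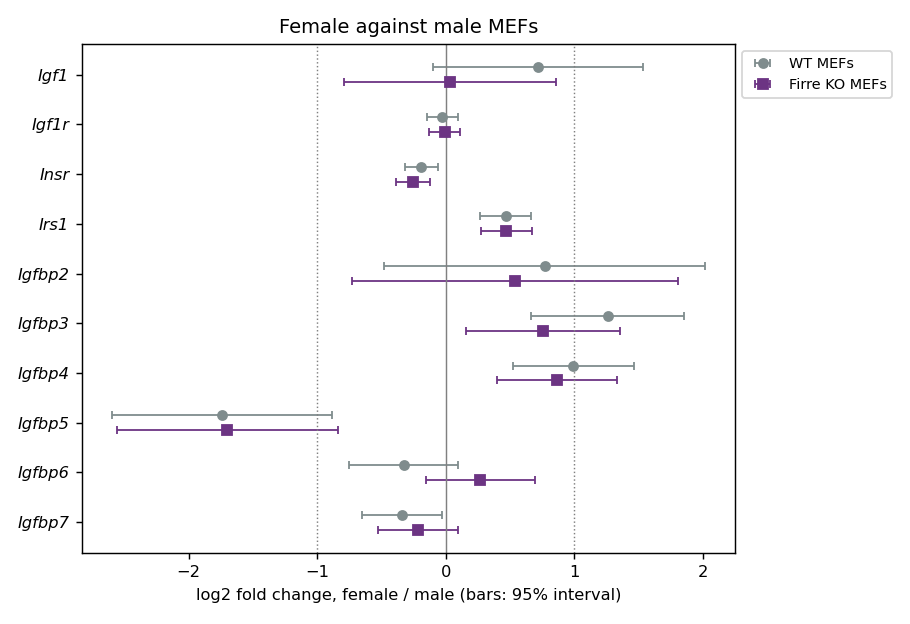
Log2 fold change of female over male MEFs for each member, in WT (grey circles) and *Firre* KO (purple squares) libraries, with the 95% interval as bars. Dotted lines mark 2-fold changes. *Igfbp5* lies near -1.7 in both comparisons, *Igfbp3* and *Igfbp4* lie between 0.76 and 1.26 in all 4 values, *Irs1* lies at 0.47 and *Igf1r* at 0.

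Marker genes of other cells also differed between the sexes. The summed level of the 10 macrophage markers was 41.1 to 129.2 CPM in female and 8.75 to 17.6 CPM in male libraries, and 9 of 10 passed the study's thresholds in WT and 9 of 10 in KO. Of all genes tested, 4.54% passed these thresholds in WT and 3.89% in KO. Sums of 7 epithelial markers were 74.6 to 128.7 CPM in female and 40.8 to 53.7 CPM in male libraries (4 of 7 passed in WT and 1 of 7 in KO), and no marker of either list was at 0 in all libraries. Skeletal muscle markers overlapped in their sums between the sexes, although 3 of 9 tested passed in WT and 4 of 9 in KO, and 2 of 6 tested neural markers passed in both. Of the endothelial, cartilage and fibroblast markers 0 passed the study's thresholds in either comparison. Endothelial sums nevertheless did not overlap, at 25.8 to 36.4 CPM in female and 17.9 to 24.4 CPM in male libraries. *Kdr* was the largest part of the endothelial sum, *Krt19* of the epithelial and *Acta1* of the muscle sum in every library. At an adjusted p under 0.05 with no fold limit 3 of 6 tested endothelial markers were higher in female MEFs in WT and 1 of 6 in KO. Of all genes, 18.9% were higher in female MEFs at that level in both comparisons. At that level 3 of 10 fibroblast markers were lower in female MEFs in WT, and 1 was higher and 4 lower in KO. The background there was 38.7% of all genes in both comparisons (19.8% lower in WT and 19.7% in KO). Passing it is thus not particular to these markers. The part of these cells in the binding protein levels was not tested.

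Upstream sequence is shown for the 3 binding proteins with the largest differences between the sexes. The lines give the 100 bases before the annotated start on the gene's own strand, from RefSeq on GRCm38.p6, a different build from that of the counts, with TATA-like runs in capitals.
Igfbp3: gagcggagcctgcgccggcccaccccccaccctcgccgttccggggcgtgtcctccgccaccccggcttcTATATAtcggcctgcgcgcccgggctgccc
Igfbp4: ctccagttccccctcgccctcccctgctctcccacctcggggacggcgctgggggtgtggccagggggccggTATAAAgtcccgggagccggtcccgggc
Igfbp5: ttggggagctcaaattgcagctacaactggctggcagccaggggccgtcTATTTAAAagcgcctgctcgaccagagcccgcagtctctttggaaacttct
They lie at chr11:7213924-7214023 (minus strand), chr11:99041144-99041243 (plus strand) and chr1:72874866-72874965 (minus strand). The runs begin 30 bases (TATATA, *Igfbp3*), 28 bases (TATAAA, *Igfbp4*) and 51 bases (TATTTAAA, *Igfbp5*) before the start, and they were chosen after the sequences were seen. Searched on both strands of the same window of 32851 RefSeq promoters, TATAAA occurred in 5.56%, TATATA in 2.19% and TATTTAAA in 0.615%. These matches describe letters and not bound sites.

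*Igfbp5* was the member past the study's thresholds in both comparisons of the sexes, and the genes most like it were sought by the correlation of log2 CPM over the 12 libraries. The 3 highest were *Gm16724* (Pearson's r = 0.973), *Accn3* (r = 0.965) and *Usp11* (r = 0.961). Like *Igfbp5*, *Gm16724* and *Usp11* were higher in every male than in every female library, with *Usp11* at 2.34 to 3.81 CPM in female and 5.01 to 6.68 CPM in male MEFs. *Gm16724* was at 0.199 to 0.407 and 0.675 to 1.36 CPM, and *Accn3* at 0.0442 to 0.193 and 0.188 to 0.611 CPM, which are low levels, and the sexes overlapped slightly for *Accn3*. The 12 points share the difference between the sexes, so r is a description of that difference more than of anything within a sex.

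The wider pathway was read from a list of 49 further genes, of which 43 were tested. In the KO comparisons 0 of 43 passed, by either threshold, in female MEFs, male MEFs or their average, and the smallest adjusted p was 0.542 in female and 1 in male MEFs. At an unadjusted p under 0.05 there were 1 in female and 2 in male MEFs, beside 7.55% and 2.06% of all genes. *Igf2* was the ligand among them, with log2 fold changes of -0.11 (SE 0.087, adjusted p = 0.802) in female and 0.19 (SE 0.087, adjusted p = 1) in male MEFs. *Igf2r* had 0.02 (SE 0.138) and 0.00 (SE 0.138), and *Irs2* 0.11 (SE 0.095) and 0.05 (SE 0.095).

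Between the sexes 0 of the 43 passed the study's thresholds, beside 4.54% of all genes in WT and 3.89% in KO. At an adjusted p under 0.05 there were 8 higher and 14 lower in female WT and 8 higher and 12 lower in female KO MEFs, beside the same background of 38.7%. Without both male libraries numbered 3, the 22 in WT became 27 and the 20 in KO became 22, beside 45.1% and 44.6% of all genes in that fit. *Igf2* was higher in female MEFs by 0.55 in WT (SE 0.087, adjusted p = 0.000785) and 0.25 in KO (SE 0.087, adjusted p = 0.0421), and *Irs2* by 0.28 (adjusted p = 0.0397) and 0.34 (adjusted p = 0.0162). Of 7 tested adaptors 2 were higher and 2 lower in WT and 1 and 1 in KO. Of 3 mRNA-binding proteins of the IGF2BP family 2 were higher in both, of 6 proteases and inhibitors that act on binding proteins 1 was lower in both, of 5 growth hormone axis genes 1 was lower in both, and of 19 signalling genes below the receptors 3 were higher and 9 lower in WT and 4 higher and 8 lower in KO MEFs. *Igfbpl1*, the remaining relative that was tested, did not pass. *Igfbp1* and *Igfals*, the liver-secreted partners of circulating IGFs, had too few counts to be tested.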

How the data were processed

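RNA-seq libraries of female and male MEFs, WT and *Firre* KO, were analysed. The authors mapped reads with Bowtie 2, quantified genes with RSEM 1.2.29 on mm9 and deposited expected counts per gene, without normalization. All 37310 gene identifiers were found in the mm9 annotation, which gave positions and merged exon lengths. Expected counts were rounded and tested with edgeR 4.0.16 in R 4.3.3 (TMM, filterByExpr, quasi-likelihood, Benjamini-Hochberg over 15387 genes), using 12 libraries, a mean for each of 4 groups and 8 residual degrees of freedom. CPM are TMM-scaled, and log2 CPM used a prior count of 2. On simulated counts for KO against WT in female MEFs (15387 genes, 200 changed 4-fold), edgeR called 200 of the changed and 0 of the other genes. All genes had the same biological coefficient of variation there (0.114), and the changed ones were not drawn from the lowest genes. Members that vary more, up to 85.4% for *Igfbp2* in male WT, were not simulated, so the result does not extend to them. Precision of low genes follows depth, and a limit of 3 counts covers the error of counting alone. Marker and pathway counts come from the same fit. The text names all members, *Firre*, *Igf2*, *Igf2r* and *Irs2*, any pathway gene past the study's thresholds in a KO comparison or in both comparisons of the sexes (0 were), and the 3 genes most correlated with a member called in both. Genes that overlap a member and untested pathway genes were added after values were seen. Members and lists were chosen with earlier results of these data known. Alternatives were DESeq2 1.42.0, other scalings and filters, fits of only the groups compared, replicate blocks and each library left out. Same-numbered WT and KO libraries deviated together in male (r = 0.237 to 0.495) and not in female MEFs (r = -0.258 to -0.132). Hi-C and CTCF ChIP-seq files were not used here.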

Additional observations from a re-analysis of the deposited data

How the results depend on the processing

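No member passed the study's thresholds in a KO comparison under any alternative run. *Firre* itself, without reads in KO, was not called in either sex with only the groups compared or with either block. The lack of a member call within each sex in those fits thus says little. Female against male, the 2 members called in WT became 0 when only the groups compared were fitted and 5 at an adjusted p under 0.05 without a fold limit, and 0 to 2 with a library left out (0 without male WT 1). The 1 called in KO became 0 with the replicate number as a block, 5 at an adjusted p under 0.05, and 0 to 1 with a library left out. *Igfbp5* kept its direction throughout, with an adjusted p of 0.016 in WT when only the groups compared were fitted and of 0.0131 in WT and 0.0137 in KO with the replicate block. *Igfbp3* in WT had 0.021 when only the groups compared were fitted. *Igfbp4* in WT passed the fold limit by library size alone (1.02), with at least 10 counts in every library (1.00), with the block (1.03) and without both male libraries numbered 3 (1.02). Members at an adjusted p under 0.05 numbered 4 to 6 in both comparisons. The cause of these shifts was not tested. Computed without length, the mean share of *Igfbp7* was 51.4% in place of 70.0%.

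The block changed no other member's call, and the block within each sex and the fits without both male libraries numbered 3 were chosen after seeing the data. Log2 fold changes near 0 changed sign, and so did that of *Igfbp2* in male KO against WT, which was -0.61 in the main fit. In female KO against WT, *Irs1* was 0.001 with the replicate block and *Igfbp5* 0.018 with the block within each sex. In male KO against WT, *Igf1* was -0.103 and *Igfbp4* -0.029 without both male libraries numbered 3, *Irs1* was 0.003 by library size alone, and *Igf1r* was 0.009 by library size alone, 0.002 with no filter, 0.002 with only the groups compared and 0.013 without both male libraries numbered 3. With single libraries left out, female KO against WT ran from -0.039 to 0.058 for *Igf1r*, -0.056 to 0.055 for *Irs1*, -0.241 to 0.046 for *Igfbp4* and -0.268 to 0.389 for *Igfbp5*. Male KO against WT ran from -0.295 to 0.228 for *Igf1*, -0.022 to 0.028 for *Igf1r*, -0.094 to 0.067 for *Irs1*, -1.392 to 0.365 for *Igfbp2*, -0.226 to 0.067 for *Igfbp3*, -0.125 to 0.287 for *Igfbp4*, -0.389 to 0.215 for *Igfbp5* and -0.078 to 0.21 for *Igfbp7*. Female against male ran from -0.068 to 0.03 for *Igf1r* in WT and from -0.457 to 0.361 for *Igf1* and -0.038 to 0.029 for *Igf1r* in KO.

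Over all genes, the KO calls of 1 in each sex became 4 (female) and 2 (male) with DESeq2, 0 with at least 10 counts, with only the groups compared and with either block, and 2 in female MEFs at an adjusted p under 0.05. The filter of at least 10 counts removes *Firre*, at 0 counts in KO, before the test. Its loss there, and in the average, was thus fixed in advance. Averaged over the sexes 1 became 3 with DESeq2 and 3 at an adjusted p under 0.05, and 0 with at least 10 counts and with the block within each sex. The difference between the sexes went from 0 to 1 with DESeq2. Female against male calls of 698 in WT and 599 in KO were 5953 and 5949 at an adjusted p under 0.05, 370 in KO with only the groups compared, and 432 to 763 and 329 to 621 with a library left out (lowest without male WT 1 and male KO 1).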
